A study of Mus musculus with 36 samples.

Results

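MHC class II presentation genes are described here through 7 members: Cd74, H2-Aa, H2-Ab1, H2-Eb1, Ciita, H2-DMa and H2-DMb1, of 38887 genes in a table of RNA-seq counts. They were chosen by symbol for a list drawn up with earlier results of these counts known, and which of those values chose them was not recorded. The list was tied to the genotype contrast within a cell type and infusion, so genotype values below are descriptions, and tests are read for cell type and infused agent, which the list did not name. Libraries came from 2 bone marrow populations sorted at 5000 cells per sample. LT-HSC were Lin−Sca-1+c-Kit+ cells positive for CD150 and negative for CD48, and HPC-1, which the labels call ST-HSC, were Lin−Sca-1+c-Kit+ cells negative for CD150 and positive for CD48. Donors were mice infused with PBS or angiotensin II (Ang II, a vasoconstrictor peptide used to provoke aortic aneurysm) over 2 weeks, and the design asks how loss of the IL-27 receptor alters these cells. All mice lacked Apoe and were fed a Western diet. At the Il27ra locus they were intact (Apoe−/−), heterozygous (Apoe−/−Il27ra+/−) or deficient (Apoe−/−Il27ra−/−), and are called so below. The labels give no sex, age or batch.

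MHC class II molecules are pairs of an alpha and a beta chain that carry peptides from the endosome to the cell surface, where CD4 T cells read them. The invariant chain Cd74 occupies the groove during transport, H2-DM removes its last fragment and helps peptides to bind, and Ciita is the coactivator that class II promoters require. B cells, dendritic cells and macrophages are the usual carriers, interferon gamma can induce the genes elsewhere, and class II is also known on hematopoietic stem cells.

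There were 17 LT-HSC and 19 HPC-1 libraries in 12 groups. In LT-HSC the groups held 1 intact, 3 heterozygous and 3 deficient libraries after PBS, and 2, 4 and 4 after Ang II. In HPC-1 they held 2, 3 and 3 libraries after PBS and 3, 4 and 4 after Ang II. Depth ranged from 1980283 to 6861078 counts per library, with a median of 2560838 in LT-HSC and 3254832 in HPC-1, and 25 of 36 libraries were under 4 M counts. Levels are CPM, counts scaled to library size, after TMM scaling, which corrects for library composition. The detection floor was set at 3 counts per library, or 0.398 to 1.49 CPM, and covers counting error only. The labels do not say that replicates were separate mice, so p-values measure the spread between these samples.

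Il27ra, the targeted gene, was counted in each library as a check of the labels. In LT-HSC after PBS it reached 42.7, 23.8 and 25.5 CPM in heterozygous mice and 9.41, 6.93 and 16.3 CPM in deficient mice, and the library labelled intact had 17.1 CPM. After Ang II it was 42.8 and 51.7 CPM in intact mice, 30.2, 25.4, 27.0 and 32.8 CPM in heterozygous mice, and 16.3, 11.6, 16.1 and 19.3 CPM in deficient mice. Deficient LT-HSC libraries thus lay below the heterozygous ones without reaching 0, and the PBS library labelled intact lay among the deficient ones. HPC-1 held 4.63 to 16.5 CPM, with overlap between all genotypes, so the labels could not be checked there. Counts cover the whole gene, and the deleted part could not be viewed on its own.

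The cell type labels were checked with marker lists. All 10 stem cell markers tested (among them Mecom, Fgd5, Slamf1 and Vwf) were higher in LT-HSC, and all 8 progenitor markers (among them Cd48, Flt3 and Cd34) were lower. Summed stem cell markers reached 1355 to 2966 CPM in LT-HSC libraries other than replicate 2 of the PBS deficient group, which had 516 CPM, and 295 to 655 CPM in HPC-1. That library also had 4547 CPM of the progenitor list, inside the HPC-1 range of 3811 to 6692 CPM, and so goes against its label. Replicate 2 of the Ang II deficient LT-HSC group stood apart by 8115 CPM of the granulocyte list and 2057 CPM of the monocyte and macrophage list. It also had 3698 CPM of the progenitor list, just under the HPC-1 range. The remaining LT-HSC libraries reached at most 2703 CPM of it. The stem cell sum of 1355 CPM was from this library. Replicate 3 of the PBS deficient LT-HSC group had 1345 CPM of the granulocyte list. The remaining LT-HSC libraries held 29.6 to 117 CPM of that list, except the PBS replicate 2 already named, at 3830 CPM. Results below are given with all libraries. For the calls between cell types and for agent and genotype changes in LT-HSC, values are added without 3 in doubt (LT-HSC replicate 2 of both deficient groups and the PBS library labelled intact) or without PBS deficient replicate 3 where they moved most.

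LT-HSC and HPC-1 differed in most of the class II genes. Across the 5 settings of genotype and agent with at least 2 libraries of each cell type, Cd74, H2-Aa, H2-Eb1 and Ciita were higher in LT-HSC and H2-DMa was lower, while H2-Ab1 and H2-DMb1 did not pass the test. Of 7 members, all tested, 4 were called higher, where 17.9% of 18013 genes were, and 1 was called lower, where 18.4% of genes were. Calls were made with edgeR's quasi-likelihood test at a Benjamini-Hochberg adjusted p of 5%. The same numbers, 4 higher and 1 lower, were found without the 3 libraries in doubt. In bulk libraries, fewer cells that carry a transcript and less of it per cell cannot be told apart.

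Cd74, the invariant chain, ranged in LT-HSC from 5.78 through a median of 26.6 to 70.8 CPM, and in HPC-1 from 0 through 3.47 to 10.1 CPM. Of 17 LT-HSC libraries, 13 lay above all 19 HPC-1 libraries, and the other 4 were deficient libraries, 2 from each infusion. The mean difference was 2.81 ± 0.390 (log2, SE; edgeR, Benjamini-Hochberg adjusted p = 1.41e-06). The highest library was replicate 3 of the PBS deficient group, and without it the difference was 2.47.

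The classical alpha and beta chains split. H2-Aa, the alpha chain of I-A, ranged from 1.62 through 11.6 to 21.3 CPM in LT-HSC and from 0 through 0.897 to 3.65 CPM in HPC-1, where 11 of 19 libraries were at or under the floor. H2-Eb1, the beta chain of I-E, ranged from 0.590 through 8.60 to 22.9 CPM in LT-HSC and from 0 through 0.661 to 2.64 CPM in HPC-1, where 13 of 19 were at or under it. H2-Eb1 passed the low-count filter over all 36 libraries but not over the HPC-1 libraries alone. For both genes 13 of 17 LT-HSC libraries lay above all of HPC-1. The differences were 2.68 ± 0.421 for H2-Aa (log2, SE; edgeR, Benjamini-Hochberg adjusted p = 1.89e-06) and 3.38 ± 0.457 for H2-Eb1 (adjusted p = 9.45e-08 by the same test). H2-Ab1, the beta chain that pairs with H2-Aa, behaved otherwise, with 3.42, 18.1 and 42.8 CPM as lowest, median and highest in LT-HSC and 6.26, 16.9 and 34.7 CPM in HPC-1. Only 3 LT-HSC libraries exceeded all of HPC-1 and 1 lay below all of it, and the difference was 0.35 ± 0.204 (log2, SE, 95% interval −0.05 to 0.75; edgeR, Benjamini-Hochberg adjusted p = 0.202). Its direction turned in libraries under 4 M counts, nearly all of which had Y-linked transcripts, to −0.07.

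Ciita, the coactivator, ranged from 1.77 through 5.60 to 12.4 CPM in LT-HSC and from 0 through 2.03 to 5.54 CPM in HPC-1. Here 9 of 17 LT-HSC libraries were above every HPC-1 library and the groups overlapped more than for Cd74. The difference was 1.88 ± 0.383 (log2, SE; edgeR, Benjamini-Hochberg adjusted p = 0.000101).

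The H2-DM chains, which load peptide, did not follow. H2-DMa ranged from 17.96 through 28.4 to 50.1 CPM in LT-HSC and from 30.6 through 41.8 to 67.8 CPM in HPC-1, and 11 of 17 LT-HSC libraries lay below all of HPC-1. Its difference was −0.66 ± 0.131 (log2, SE; edgeR, Benjamini-Hochberg adjusted p = 8.37e-05). The highest LT-HSC value, 50.1 CPM, belonged to the PBS deficient replicate 2 whose markers went against its label. H2-DMb1 ranged from 7.02 through 13.1 to 17.1 CPM in LT-HSC and from 2.09 through 11.6 to 22.3 CPM in HPC-1, an overlap, with a difference of 0.10 ± 0.215 (log2, SE, 95% interval −0.33 to 0.52; edgeR, Benjamini-Hochberg adjusted p = 0.873).

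**Figure D1:**
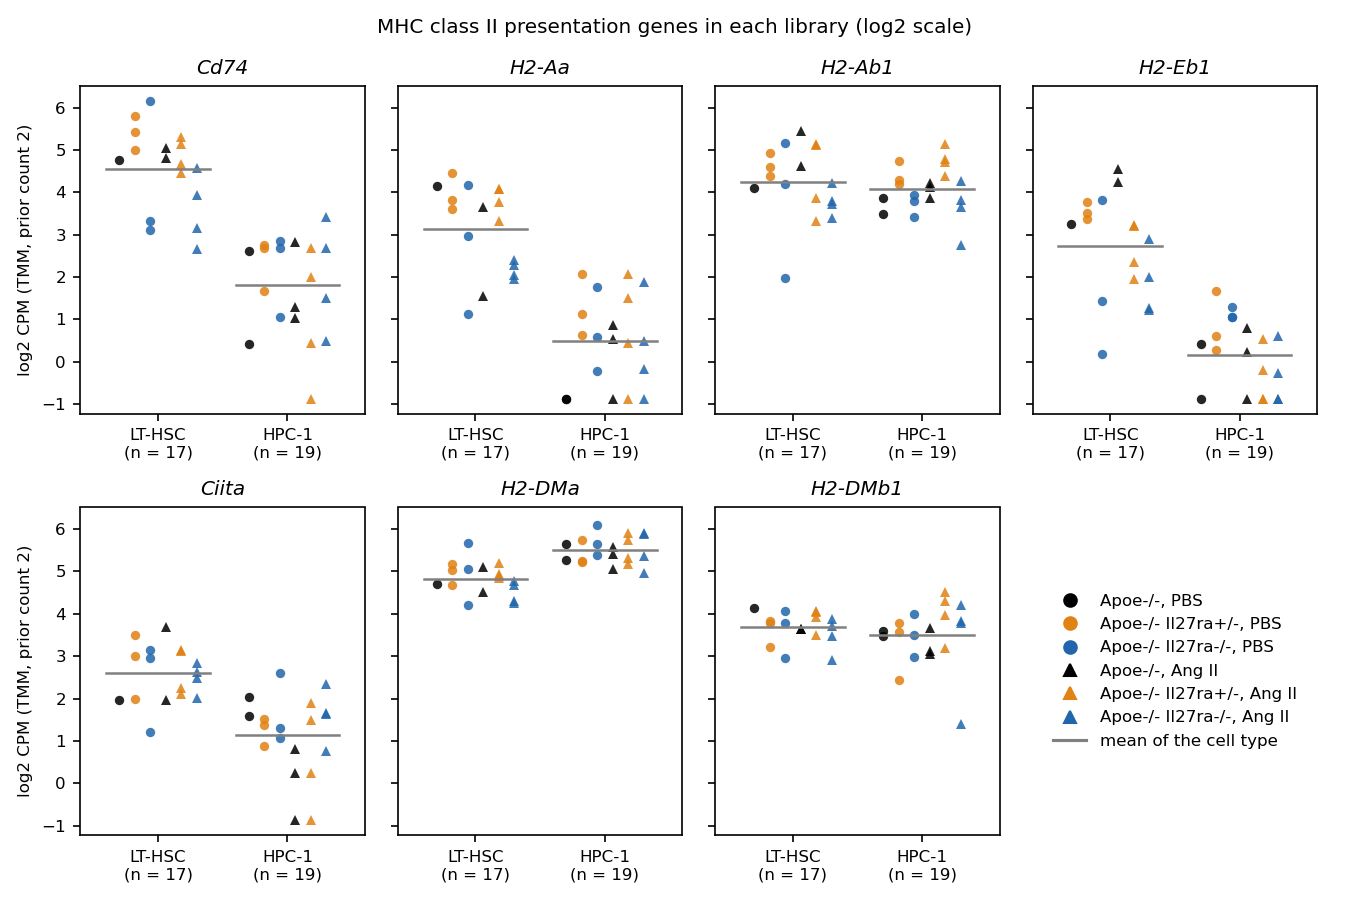
Level of each of the 7 genes in each library as log2 CPM (TMM scaling, prior count of 2; vertical axis) for LT-HSC (17 libraries) and HPC-1 (19 libraries), with color for genotype, circles for PBS, triangles for Ang II and a grey line for the mean of the cell type. Cd74, H2-Aa, H2-Eb1 and Ciita sit higher in LT-HSC, H2-DMa sits lower, and H2-Ab1 and H2-DMb1 overlap.

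Within single settings fewer members passed. In PBS-infused heterozygous mice 1 member, Cd74, was called (3.12 ± 0.884, log2, SE; edgeR, Benjamini-Hochberg adjusted p = 0.0292), against 7.67% of genes, and this call was lost when any of the 6 libraries was left out. DESeq2 and limma-voom each called 3 there, and 1818 and 1892 of 18013 genes, as did edgeR without the libraries in doubt, where 1972 of 14979 genes were called. In PBS-infused deficient mice 0 of 7 were called by edgeR, against 0.883% of genes. At an unadjusted p under 0.05 there were 3, and 1948 of 18013 genes, and DESeq2 called 1 and limma-voom 0, and 447 and 0 of 18013 genes. Without the libraries in doubt 3 were called there, and 1508 of 14979 genes: Cd74 at 3.07, H2-Aa at 3.10 and H2-DMa at −1.02 (log2). Leaving out LT-HSC replicate 2 alone also gave 3, and leaving out LT-HSC replicate 3 took Cd74 from 2.65 to 0.91 and H2-Eb1 from 1.72 to −0.37.

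After Ang II, 3 members were called in intact mice against 10.4% of genes. They were Cd74 (3.23 ± 0.989), H2-Eb1 (4.91 ± 1.14) and Ciita (3.54 ± 1.04, all log2, SE). The count fell to 1 without LT-HSC replicate 2 and to 1 without HPC-1 replicate 2. In heterozygous mice 3 were called against 14.9% of genes, namely Cd74 (3.66 ± 0.841), H2-Aa (3.09 ± 0.849) and H2-Eb1 (4.23 ± 1.04, all log2, SE), and the 4 LT-HSC libraries lay above the 4 HPC-1 libraries for each. Libraries under 4 M counts gave 1 there (1124 of 16972 genes) and the compared groups alone 2 (2182 of 11504 genes). DESeq2 and limma-voom each called 4 (3208 and 2969 of 18013 genes). In deficient mice 2 were called against 12.5% of genes, H2-Eb1 higher (3.11 ± 0.975) and H2-DMa lower (−1.10 ± 0.261, both log2, SE). The H2-Eb1 call was lost without LT-HSC replicate 2 and without HPC-1 replicates 1, 2 or 3 in turn, each leaving 1, and 3 were called without HPC-1 replicate 4. Cd74 overlapped between the cell types in these mice, and its difference of 1.42 ± 0.756 (log2, SE) did not pass (edgeR, Benjamini-Hochberg adjusted p = 0.241). Without the libraries in doubt 4, 4 and 2 members were called after Ang II in intact, heterozygous and deficient mice, and 2418, 3153 and 3203 of 14979 genes.

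Terms for how the cell type difference varied with genotype after Ang II hold the contrast the genes were listed for, and are given as descriptions. For Cd74 the term, deficient minus heterozygous, was −2.24 ± 1.12 (log2, SE). Against intact mice the Cd74 term was −1.81 ± 1.24 and the Ciita term −2.60 ± 1.26 (log2, SE). No difference between genotypes is read from them.

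**Figure D2:**
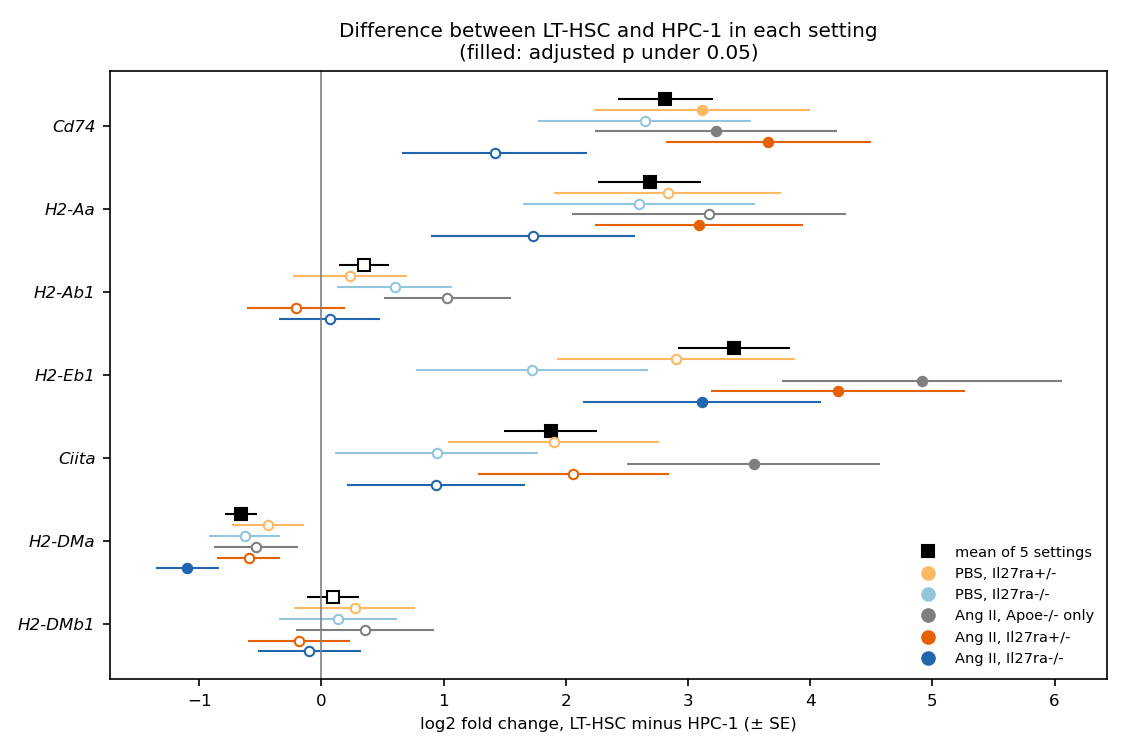
Difference between LT-HSC and HPC-1 (horizontal axis, log2 fold change, LT-HSC minus HPC-1, bars are SE) for each of the 7 genes (vertical axis), as a mean over 5 settings (squares) and within each setting of agent and genotype (circles), with filled symbols where the adjusted p was under 0.05. The mean lies at 3.38 for H2-Eb1 and 2.81 for Cd74 and at −0.66 for H2-DMa.

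Markers of cells that usually carry class II were set beside these differences, and the most abundant gene of each list is meant over both cell types together. Of 13 B cell markers 4 were abundant enough to test and 1, Cr2, was higher in LT-HSC. The defining markers Cd79a, Ms4a1 and Pax5 were near 0, at no more than 1.88 CPM in any library. The most abundant, Cd79b, averaged 10.3 CPM in LT-HSC and 12.2 CPM in HPC-1, and the list summed to 13.4 to 39.8 CPM in LT-HSC and 6.82 to 28.3 CPM in HPC-1. The highest sum was in PBS heterozygous LT-HSC replicate 2, the library with the most H2-Aa (21.3 CPM). Of 11 dendritic cell markers 9 were tested, with 1 higher and 2 lower in LT-HSC. The higher one and the most abundant was Clec9a, at 15.3 ± 8.15 CPM in LT-HSC and 2.32 ± 2.04 CPM in HPC-1 (SD). Itgax and Clec10a were lower, Batf3 and Cd300c were at 0 in most libraries, and the list summed to 9.45 to 43.3 CPM in LT-HSC and 12.4 to 34.3 CPM in HPC-1.

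Of 14 monocyte and macrophage markers 1, Mertk, was higher in LT-HSC and 5 were lower. Lyz2 was the most abundant, and C1qa, C1qb, C1qc and Adgre1 averaged under 2 CPM in both cell types. Their sum was 103 to 2057 CPM in LT-HSC and 173 to 396 CPM in HPC-1. Of 5 plasma cell markers 3 were tested and 1, Jchain, was higher in LT-HSC, where the list summed to 1.68 to 50.0 CPM with the highest in PBS deficient replicate 3, the library with the most Cd74. HPC-1 held 2.27 to 21.8 CPM of that list, Sdc1 was its most abundant gene, and Mzb1 and Tnfrsf17 were at 0 in most libraries. The part of these cells in the class II difference was not tested.

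Further lists covered other cells. Of 10 T and NK cell markers 5 were tested, 2 higher (Lat, Klrb1c) and 2 lower (Nkg7 and Cd4) in LT-HSC, the most abundant was Nkg7 over both cell types and Lat in LT-HSC alone, Cd3e, Cd3d and Trac were near 0, and sums were 15.9 to 61.8 CPM in LT-HSC and 24.3 to 57.5 CPM in HPC-1. Of 8 granulocyte markers 1 (S100a9) was higher and 3 were lower, with Mpo the most abundant and sums of 2312 to 6757 CPM in HPC-1. Of 9 eosinophil, mast cell and basophil markers 0 were higher and 4 lower by edgeR, Cpa3 was the most abundant, and sums were 0.855 to 702 CPM in LT-HSC and 36.4 to 175 CPM in HPC-1. Of 6 endothelial markers 4 were higher and 1, Pecam1, the most abundant, was lower, with sums of 126 to 256 CPM in LT-HSC and 157 to 242 CPM in HPC-1. Of 20 intestinal epithelial markers, a tissue that can make class II, 17 were tested and 3 (Epcam, Krt8, Krt18) were higher. Muc13 was the most abundant of them, at a mean of 476 CPM in LT-HSC and 450 CPM in HPC-1. Krt18 averaged 82.4 and 34.0 CPM. Both were counted in each library, and Muc13 made up much of the sums. Cdx1, Cdx2 and Phgr1 were at 0 in most libraries. Sums were 931 and 949 CPM in the 2 Ang II intact LT-HSC libraries and 999 CPM in the PBS library labelled intact. Other LT-HSC libraries had 464 to 709 CPM and HPC-1 had 392 to 723 CPM. The part of these cells in the result was not tested.

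With the main settings Ang II against PBS gave no call in the members, and without the low-count filter 1 was called in deficient LT-HSC. In LT-HSC 0 of 7 were called in heterozygous and 0 of 7 in deficient mice by edgeR, where 0% and 0% of 16365 genes were called. At an unadjusted p under 0.05 there were 0 and 1 (H2-DMa), and 806 and 150 of all genes, and DESeq2 and limma-voom each called 0. In HPC-1 6 of 7 members passed the filter on low counts, H2-Eb1 being too low, and 0 of 6 were called by edgeR in intact mice, 0 in heterozygous and 0 in deficient mice, where 0%, 0% and 0% of 13199 genes were. The count at an unadjusted p under 0.05 was 0 in each of the 3, with 420, 519 and 244 of all genes, and DESeq2 and limma-voom called 0.

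Cd74 in heterozygous LT-HSC was 55.3, 42.7 and 31.6 CPM after PBS and 25.0, 38.9, 21.6 and 34.5 CPM after Ang II. In deficient LT-HSC it was 8.13, 9.44 and 70.8 CPM after PBS and 14.8, 23.3, 8.37 and 5.78 CPM after Ang II. In the first pair of groups 2 Ang II libraries lay above the lowest PBS library, and in the second a single PBS library was far above the rest. The change was −0.54 ± 0.650 in heterozygous and −1.25 ± 0.666 in deficient LT-HSC (log2, SE; edgeR, Benjamini-Hochberg adjusted p = 1.00 in both). The latter was −2.15 without the libraries in doubt and turned to 0.50 without PBS replicate 3, so its direction rested on that library. The difference between these changes, given as a description, was −0.71 ± 0.937 (log2, SE).

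H2-Eb1 in heterozygous LT-HSC was 9.71, 13.2 and 10.9 CPM after PBS and 3.30, 8.60, 4.61 and 8.89 CPM after Ang II. The groups did not overlap, and the change of −0.83 ± 0.699 (log2, SE) did not pass (edgeR, Benjamini-Hochberg adjusted p = 1.00). The 2 intact libraries after Ang II had 18.3 and 22.9 CPM and the single PBS library labelled intact had 9.03 CPM, which allows no test. H2-Ab1 in intact HPC-1 was 10.6 and 14.0 CPM after PBS and 14.1, 18.1 and 16.9 CPM after Ang II, without overlap, and its change of 0.42 ± 0.426 (log2, SE) did not pass (edgeR, Benjamini-Hochberg adjusted p = 1.00). Ciita in the same groups lay the other way, at 3.54 and 2.45 CPM after PBS and 1.196, 0.634 and 0 CPM after Ang II, also without overlap, and did not pass (edgeR, Benjamini-Hochberg adjusted p = 1.00). H2-Eb1 in deficient HPC-1 was 1.91, 1.54 and 1.53 CPM after PBS and 0, 0, 0.290 and 0.982 CPM after Ang II, too low to test. The remaining agent changes in LT-HSC ranged from −1.15 for H2-Aa in deficient to 0.27 for H2-DMb1 in heterozygous mice (log2). Without the libraries in doubt the deficient changes were −1.71 for H2-Aa, −0.78 for H2-Ab1, −1.80 (from −0.72) for H2-Eb1, −0.65 (from −0.15) for Ciita, −0.29 (from −0.62) for H2-DMa and −0.26 (from −0.17) for H2-DMb1. Without PBS replicate 3 they went the other way, to 1.47 for H2-Eb1, 0.25 for H2-Ab1, 0.24 for Ciita, 0.08 for H2-DMb1 and −0.07 for H2-Aa, with H2-DMa at −0.65, so most of these directions rested on that library.

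Genotype values after Ang II are given next for LT-HSC as a description, since the genes were listed for this contrast. Cd74 was 32.2 and 27.4 CPM in intact against the heterozygous and deficient values above, so the deficient libraries were all below the intact ones and overlapped the heterozygous ones through replicate 2. H2-Aa was 2.41 and 11.9 CPM in intact mice, 13.2, 16.4, 9.42 and 16.3 CPM in heterozygous mice and 3.32, 4.31, 4.70 and 3.58 CPM in deficient mice. The deficient libraries were close together and all below the heterozygous ones, and the intact libraries lay on either side of them. H2-Ab1 was 24.1 and 42.8 CPM, then 9.42, 34.0, 14.0 and 34.7 CPM, then 12.6, 18.1, 10.004 and 13.3 CPM in the same order, and the deficient libraries were below the intact ones.

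H2-Eb1 in Ang II deficient LT-HSC was 1.85, 6.89, 3.47 and 1.79 CPM, with replicate 2, the one rich in granulocyte transcripts, the highest. Deficient and heterozygous libraries both lay below the 18.3 and 22.9 CPM of intact mice. H2-DMa was 33.7 and 22.4 CPM in intact mice, 29.2, 28.4, 36.2 and 30.4 CPM in heterozygous mice and 27.0, 25.0, 19.2 and 18.4 CPM in deficient mice, the last all below the heterozygous ones. Ciita spanned 3.37 to 12.4 CPM and H2-DMb1 7.02 to 16.2 CPM over these 10 libraries, with overlap between genotypes. The same libraries also differed otherwise. Summed intestinal epithelial markers were 931 and 949 CPM in intact mice, 586 to 709 CPM in heterozygous mice and 495 to 537 CPM in deficient mice. Much of these sums was Muc13, which each library held. Both intact libraries had Y-linked transcripts (log2 sums of 7.81 and 7.53) and under 4 M counts, while replicates 3 and 4 of the heterozygous and of the deficient group had a sum of 0 and over 4 M counts. Genotype, the Y-linked split and depth were thus partly mixed, and the part of each was not tested.

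Deficient minus heterozygous after Ang II ranged from −1.79 ± 0.557 for H2-Aa to −0.25 ± 0.565 for Ciita (log2, SE), with Cd74 at −1.24 ± 0.635. The median of all genes was 0.01 (log2). Without the libraries in doubt Cd74 was at −1.70 and H2-Eb1 went from −0.91 to −1.43. By edgeR 0 of 7 were called, where 0% of genes were, 1 had an unadjusted p under 0.05, as did 426 of 16365 genes, and DESeq2 and limma-voom called 0. Deficient minus intact, a comparison that shares the deficient libraries, ranged from −2.58 ± 0.786 for H2-Eb1 to −0.10 ± 0.405 for H2-DMb1 (log2, SE). The median of all genes there was 0.14 (log2). Without the libraries in doubt H2-Eb1 was at −3.11 and Cd74 went from −1.22 to −1.70. By edgeR 0 of 7 were called, where 1.69% of genes were, 1 had an unadjusted p under 0.05, as did 2896 of 16365 genes, and DESeq2 called 1 and limma-voom 0. Heterozygous minus intact ranged from −1.67 for H2-Eb1 to 0.96 for H2-Aa (log2). There 0 of 7 were called by edgeR, where 0.831% of genes were, 1 had an unadjusted p under 0.05, as did 2563 of 16365 genes, and DESeq2 and limma-voom called 0. All these counts are printed for the record and are no test of the members.

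**Figure D3:**
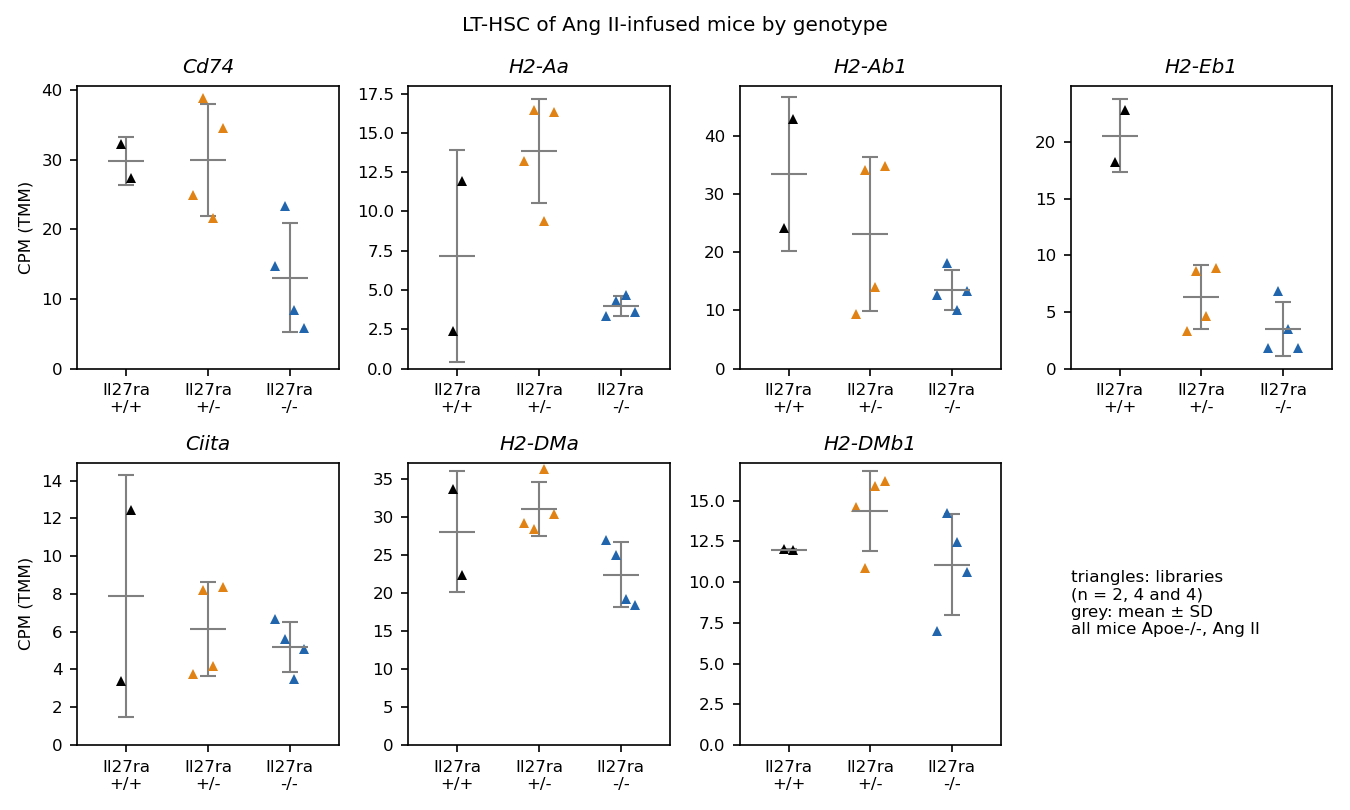
CPM (vertical axis, TMM scaling) of each of the 7 genes in LT-HSC libraries of Ang II-infused mice by Il27ra genotype (horizontal axis, n = 2, 4 and 4), with triangles for libraries and grey marks for mean ± SD. The 4 deficient libraries lie below the 4 heterozygous ones for H2-Aa (3.32 to 4.70 against 9.42 to 16.4) and H2-DMa.

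After PBS, LT-HSC of deficient mice overlapped the heterozygous ones for each of the 7 genes. Deficient minus heterozygous ranged from −1.02 ± 0.753 for H2-Eb1 to 0.12 ± 0.307 for H2-DMa (log2, SE). Without the libraries in doubt H2-Eb1 was at −0.48, H2-Aa went from −0.82 to −0.33 and Cd74 from −0.53 to −0.10, H2-DMa turned to −0.30 and Ciita from −0.32 to 0.12. Without PBS deficient replicate 3 the values were −3.21 for H2-Eb1, −2.28 for Cd74, −1.91 for H2-Aa, −1.13 for H2-Ab1 and −0.71 for Ciita, so the sizes rested on single libraries. By edgeR 0 of 7 were called, where 0% of genes were, 0 had an unadjusted p under 0.05, against 653 of 16365 genes, and DESeq2 and limma-voom called 0. The spread came from within the deficient group: H2-Aa was 7.27, 1.62 and 17.5 CPM, H2-Ab1 3.42, 17.8 and 35.2 CPM and H2-Eb1 2.14, 0.590 and 13.6 CPM in replicates 1, 2 and 3.

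In HPC-1, H2-Ab1 after Ang II was 14.1, 18.1 and 16.9 CPM in intact mice, 25.9, 26.9, 34.7 and 20.3 CPM in heterozygous mice and 12.1, 6.26, 13.6 and 18.6 CPM in deficient mice. The heterozygous libraries were above all others of that infusion. Deficient minus heterozygous was −1.08 ± 0.321 and heterozygous minus intact was 0.69 ± 0.349 (log2, SE). After PBS the heterozygous libraries, at 17.9, 26.0 and 18.9 CPM, were again above the 10.6 and 14.0 CPM of intact mice and the 13.4, 10.2 and 14.7 CPM of deficient mice.

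Counts for the 6 HPC-1 genotype comparisons follow. After Ang II, deficient minus intact had 0 of 6 called by edgeR (0% of genes), deficient minus heterozygous 0 of 6 (0%) and heterozygous minus intact 0 of 6 (0%). After PBS, deficient minus intact had 0 of 6 called (0.0152% of genes), deficient minus heterozygous 0 of 6 (0%) and heterozygous minus intact 0 of 6 (0%). An unadjusted p under 0.05 was reached by 1 member after Ang II, H2-Ab1 in deficient minus heterozygous (375 of 13199 genes), and by 1 after PBS, H2-Aa in heterozygous minus intact (631 of 13199 genes). DESeq2 and limma-voom called 0 in each. H2-Aa was at 0 counts in both PBS intact libraries and at most 3.65 CPM elsewhere in HPC-1, and no fold is given. Cd74 in HPC-1 was 0.786 and 5.60, 2.65, 6.18 and 5.89, and 6.69, 1.54 and 5.92 CPM after PBS in intact, heterozygous and deficient mice, so the groups overlapped.

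Levels of different genes were compared as CPM per kilobase of exon, which corrects for gene length. On that per-length scale the order of mean levels in LT-HSC was Cd74 (16.7), H2-DMa (8.35), H2-Ab1 (8.25), H2-DMb1 (7.52), H2-Eb1 (4.23), H2-Aa (2.72) and Ciita (0.638). In HPC-1 the order per kilobase was H2-DMa (13.3), H2-DMb1 (7.05), H2-Ab1 (6.83), Cd74 (2.33), H2-Eb1 (0.389), H2-Aa (0.327) and Ciita (0.217). In LT-HSC neighbours in this order were apart by more than 1 SD over libraries for H2-DMb1 against H2-Eb1 and for H2-Aa against Ciita. In HPC-1 they were apart for H2-DMa against H2-DMb1, H2-Ab1 against Cd74 and Cd74 against H2-Eb1. Other neighbours did not differ beyond their spread. With the longest transcript as length, H2-Ab1 moved ahead of H2-DMa in LT-HSC (17.5 against 14.4) and of H2-DMb1 in HPC-1 (14.5 against 8.45). The order is over all groups, and in the 2 intact LT-HSC libraries after Ang II H2-Eb1 per kilobase (10.6) was above H2-DMa (8.13) and H2-DMb1 (7.13). By its mean, Cd74 per kilobase thus stood first in LT-HSC, though above H2-DMa in only 13 of 17 libraries and not beyond their spread. In HPC-1 it was in the fourth place, where the H2-DM chains and H2-Ab1 were ahead of it.

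Some pairs of members varied together across libraries and others did not. Within LT-HSC, over 16 libraries and as deviations from group means of log2 CPM, H2-Eb1 went with Cd74 (Pearson r = 0.82, Spearman 0.67) and with H2-Aa (r = 0.76, Spearman 0.69), and H2-Aa went with Ciita (r = 0.75, Spearman 0.65). Cd74 went with H2-Ab1 (r = 0.68, Spearman 0.62). Without PBS deficient replicate 3, r was 0.67, 0.65, 0.73 and 0.54 for these pairs. H2-Aa and H2-Ab1, which encode the partner chains of I-A, had r = 0.28 (Spearman 0.41), and 0.04 without that library. H2-DMa ran opposite to Ciita (r = −0.60, Spearman −0.61) and to H2-Aa (r = −0.52, Spearman −0.53). PBS deficient replicate 2, whose markers went against its label, had the highest H2-DMa of LT-HSC (50.1 CPM). It also had the lowest Ciita (1.77 CPM), H2-Aa (1.62 CPM) and H2-Eb1 (0.590 CPM). No r was computed without that library, so these correlations may rest on it. In HPC-1, over 19 libraries, H2-Eb1 went with H2-DMa (r = 0.70, Spearman 0.67) and with H2-Aa (r = 0.69, Spearman 0.68), while Cd74 and H2-Aa had r = 0.03 (Spearman 0.01), with many of these counts near the floor. Libraries share depth and composition, so these are descriptions.

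Of the other class II chains H2-Ob and H2-DMb2 were lower in LT-HSC, and H2-Oa did not pass by edgeR, while limma-voom called 3 of these chains. Of 6 listed, 5 were in the table and 3 were tested, with 0 higher and 2 lower by edgeR and a median difference of −1.54, against 0.03 for all genes (log2). H2-Ob, the beta chain of H2-DO that restrains H2-DM and the most abundant of these, was 10.5 ± 7.11 CPM in LT-HSC and 30.5 ± 13.8 CPM in HPC-1 (SD), a difference of −1.54 ± 0.215 (log2, SE; edgeR, Benjamini-Hochberg adjusted p = 2.98e-07). Its alpha chain H2-Oa differed by −0.60 ± 0.295 (log2, SE; edgeR, Benjamini-Hochberg adjusted p = 0.113). H2-DMb2 was called lower at 0.588 ± 0.892 CPM against 2.74 ± 1.83 CPM (SD), but shares sequence with H2-DMb1. H2-Eb2 and H2-Ea-ps were at 0 in most libraries.

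Of 10 regulators of class II transcription, all tested, 2 were higher in LT-HSC and 3 lower, with a median of 0.22 against 0.03 for all genes (log2). Rfxap, a subunit of the RFX complex that binds class II promoters, was higher by 0.44 ± 0.132, and Zxdc, a Ciita partner, by 0.47 ± 0.0906 (log2, SE). Nfya and Nfyb, subunits of the NF-Y factor, differed by −0.24 ± 0.0667 and −0.47 ± 0.134, and Creb1 by −0.50 ± 0.0790 (log2, SE). Nfya was the most abundant, at 239 CPM in LT-HSC and 278 CPM in HPC-1. The other RFX genes Rfx5 (0.17) and Rfxank (0.28, log2) did not pass by edgeR, while DESeq2 and limma-voom each called 7 genes of the list.

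Of 15 genes of invariant chain processing, all tested, 3 were higher and 4 lower, with a median of −0.04 (log2). Ctss, the protease that trims the invariant chain in antigen-presenting cells, was lower in LT-HSC, at 16.3 ± 26.3 CPM against 33.0 ± 9.65 CPM (SD), a difference of −1.29 ± 0.379 (log2, SE; edgeR, Benjamini-Hochberg adjusted p = 0.00850). Ctsl, a related protease, was higher by 0.76 ± 0.227, Ctsb by 0.33 ± 0.108 and Cd63, a tetraspanin of endosomes, by 0.68 ± 0.119 (log2, SE). Cst3, a cathepsin inhibitor, differed by −0.69 ± 0.119, Lamp1 by −0.24 ± 0.0752 and the chaperone Hspa8, the most abundant, by −0.76 ± 0.0772 (log2, SE).

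Of 10 genes of surface turnover and co-stimulation that had counts here 8 were tested, with 3 higher, 1 lower and a median of 0.30 (log2). March8, a ubiquitin ligase that can remove class II from the surface, was higher by 0.58 ± 0.150, Cd86, a ligand of CD28, by 1.56 ± 0.516 and Cd274, the PD-1 ligand and the most abundant, by 0.77 ± 0.136 (log2, SE). Lag3, a class II receptor, differed by −0.73 ± 0.267 (log2, SE; edgeR, Benjamini-Hochberg adjusted p = 0.0272). Without LT-HSC replicate 2 of the Ang II intact group 2 of these calls were lost, those of March8 (0.34) and Lag3 (−0.53, log2). Cd40, Cd80 and Cd83 were at 0 in most libraries.

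The interferon gamma route to Ciita split evenly, with 6 of 13 tested genes higher in LT-HSC, 6 lower and a median of 0.29 (log2). Among the higher were the kinases Jak1 (0.29 ± 0.0742, the most abundant gene) and Jak2 (0.65 ± 0.0955), the transcription factors Irf2 (0.63 ± 0.104) and Irf4 (1.63 ± 0.682), and Il27ra (1.34 ± 0.168, log2, SE). The receptor chains Ifngr1 (−0.73 ± 0.112) and Ifngr2 (−1.11 ± 0.162), the factors Irf1 (−0.26 ± 0.0856), Irf8 (−4.08 ± 0.518) and Spi1 (−1.14 ± 0.167), and the cytokine receptor subunit Il6st (−0.59 ± 0.0825, log2, SE) were lower. The Irf4 call rested on few counts and was lost without the libraries in doubt (edgeR, Benjamini-Hochberg adjusted p = 0.0460 with them). Socs1 did not pass by edgeR, while DESeq2 and limma-voom each called 13 genes of this list, and Ifng was at 0 in most libraries. In all 5 lists 0 genes were called for Ang II against PBS, as in the whole table.

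By the correlation of log2 CPM with the mean of the 7 members, as deviations from cell type means over 36 libraries, the closest of 18006 other genes included Gm12020 (r = 0.71), Gm12185 (0.64), H2-Q5 (0.59), Kcnj5 (0.59), H2-Q7 (0.56), Plxnb1 (0.56), Gbp4 (0.55), H2-K1 (0.54) and Ifit3 (0.54). Within LT-HSC alone r was 0.86 for Gm12185, and within HPC-1 it was 0.48. With deviations from group means 0 of the closest 10 were the same. Gm12185, at 20.8 CPM in LT-HSC and 7.55 CPM in HPC-1, differed between them by 1.31 ± 0.236 (log2, SE; edgeR, Benjamini-Hochberg adjusted p = 1.82e-05), and Gbp4, at 16.0 and 0.587 CPM, by 4.65 ± 0.560 (adjusted p = 4.71e-08 by the same test).

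On GRCm38, the assembly also called mm10, 5 members lie in the H2 region of chromosome 17: H2-DMa at chr17:34119541-34139101, H2-DMb1 at chr17:34153072-34160230, H2-Ab1 at chr17:34257689-34269419, H2-Aa at chr17:34282744-34287823 on the minus strand and H2-Eb1 at chr17:34305867-34316674. Ciita is at chr16:10480059-10528418 and Cd74 on a further chromosome. Members of the cluster thus moved in different directions, H2-Aa and H2-Eb1 higher in LT-HSC and H2-DMa and the nearby H2-Ob lower. Of the exon bases of H2-DMa, 360 (10.4%) are shared with Brd2 on the opposite strand, and of those of Ciita 329 (3.45%) with Dexi, also opposite. The library kit keeps strand, but the setting used in counting was not given in the sources used here, so H2-DMa and Ciita values are uncertain, and the share of reads from the opposite strand was not tested. Of the 75-base stretches of H2-DMb1 transcripts 15.8% also occur in H2-DMb2, and reads there could be split between them.

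Promoters of 4 of 7 members were matched in the RefSeq table (H2-Aa, H2-Eb1, H2-DMa, H2-DMb1), as 300 bases from 250 before the start, on build GRCm38.p6. Cd74, Ciita and H2-Ab1 had no entry. All promoters of the table were searched on both strands for TGATTGG, the letters of the class II Y box, and for GNAAC, a core of the X box. The letters of both do not overlap in the stretches shown. Of 32851 promoters 7.82% held TGATTGG, 84.8% held GNAAC, and 0.572% held GNAAC followed by TGATTGG 20 to 40 bases on, a window chosen after the member sequences were seen. For the members and other class II chains a pair was kept only on the strand of the gene and before the start, a narrower rule than for these shares. By it the pair was found in H2-Aa, H2-Eb1 and H2-DMb1 and not in H2-DMa. It was also found in H2-Oa, H2-Eb2 and H2-Ob, the last lower in LT-HSC. The stretches of H2-Aa (chr17:34287864-34287907, minus strand), H2-Eb1 (chr17:34305773-34305815, plus strand) and H2-Ob (chr17:34238815-34238855, plus strand) are shown, since these genes differed in opposite directions. Capitals mark the letters searched.
H2-Aa: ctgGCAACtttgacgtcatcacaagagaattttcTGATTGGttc
H2-Eb1: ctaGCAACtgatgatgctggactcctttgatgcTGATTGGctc
H2-Ob: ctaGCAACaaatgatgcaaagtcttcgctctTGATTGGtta
The gaps between the marked letters were 26, 25 and 23 bases, and a match is a description of letters, not of binding.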

How the data were processed

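The authors sorted the cells, made stranded total RNA libraries and deposited 1 table of expected counts per gene from RSEM on mm10. These expected counts were deposited as whole numbers (0 were not whole) and were used as such. The study's methods name STAR and the submitters' processing notes Bowtie2 and RSEM 1.2.31. Members and lists were chosen with earlier results of these data known. Symbols matched 37570 of 38887 genes. In R 4.3.3, edgeR 4.0.16 was used with filterByExpr, TMM and a robust quasi-likelihood test, fitted over all genes (18013 in 1 model of 36 libraries for cell type, 16365 in LT-HSC and 13199 in HPC-1 for agent and genotype), with Benjamini-Hochberg adjustment at 5%. Named genes were the 7 members, Il27ra, list genes passing 5% (up to 10 per list) with the most abundant one, and 10 genes of most similar pattern. Alternatives included DESeq2 1.42.0, limma-voom 3.58.1 and each library left out. The tests were tried on simulated counts. Lengths and positions came from GENCODE. Some Y-linked levels, a log2 sum of 0 to 0.476 in part of the libraries and 7.38 to 8.37 in the rest, gave a covariate, since the labels give no sex. Each library over 4 M counts had a sum of 0. Under 4 M counts only PBS heterozygous LT-HSC replicate 2 (0.476) was not in the high range. Depth and the Y-linked split were thus mixed, and the part of each was not tested.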

Additional observations from a re-analysis of the deposited data

How the results depend on the processing

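The mean cell type calls, 4 members higher and 1 lower, were the same in 10 alternatives and when each of 33 libraries was left out. H2-Ab1 and H2-DMb1, never called, turned direction: H2-Ab1 to −0.07 under 4 M counts and H2-DMb1 to −0.01 with the Y-linked covariate. Keeping only libraries under 4 M counts left 0 members called in PBS heterozygous, 1 in Ang II heterozygous and 1 in Ang II deficient mice. For PBS heterozygous mice DESeq2, limma-voom, no filter, a mean of at least 10 counts, the compared groups alone and the set without libraries in doubt gave 3 and upper-quartile scaling gave 2, and leaving out 1 library gave 0 to 0. For PBS deficient mice DESeq2 and no filter gave 1, the set without libraries in doubt 3, and leaving out 1 library 0 to 3. With the compared groups alone Ang II intact and Ang II deficient mice had 1 each, and leaving out 1 library gave 1 to 3 in both. No filter gave 1 member for Ang II in deficient LT-HSC, 3 for Ang II deficient minus intact and 2 for deficient minus heterozygous LT-HSC, and DESeq2 and the set without libraries in doubt gave 1 for deficient minus intact. A mean of at least 10 counts left 1 class II chain called, and the turnover list had 2 to 5 when 1 library was left out. With the longest transcript as length, levels per kilobase were 17.5 and 14.5 for H2-Ab1 and 14.4 and 22.9 for H2-DMa in LT-HSC and HPC-1, and 1.01 for Ciita in LT-HSC. With group means 0 of the 10 similar genes were shared. The cause was not tested.

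Replicate numbers were not used as pairs in the main tests: in 1 of 20 group pairs every same-numbered correlation was over 0.1 (r −0.197 to 0.477). In most of these pairs, including those between cell types, the mean same-numbered correlation was still above the mean of other numbers. Whether libraries shared a mouse or a batch was not tested. With the replicate number as a block (replicate block), 3 members were called in PBS heterozygous mice, and the other member counts kept within 1.5 times. Low counts limit H2-Aa and H2-Eb1 in HPC-1, where most libraries were at or under 3 counts.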
